A study of Mesocricetus auratus with 14 samples.

Results

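The sterol ring enzymes turn farnesyl diphosphate, the last intermediate shared with other isoprenoids, into cholesterol. They were followed here in liver RNA of Syrian golden hamsters (Mesocricetus auratus) through 9 genes, Fdft1, Sqle, Lss, Tm7sf2, Msmo1, Nsdhl, Hsd17b7, Sc5d and Dhcr7, taken by symbol from the 10023 genes that carry one in the authors' table. All 9 were found and all 9 passed the expression filter, among 12166 genes tested. Of the 14 samples, 7 were labelled DC371739, for treatment with a compound that carries only this code name, and 7 were labelled control. Every sample was labelled as liver from a high-fat diet, so the control livers carried the diet too. The sources used here do not give dose, duration, strain, age or sex, and the labels do not state whether each sample is a different animal. The p-values therefore measure the spread between samples, which may be technical in part.

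Cholesterol synthesis is an oxygen-consuming pathway of the endoplasmic reticulum whose enzymes are transcribed together by SREBP-2, a membrane-bound factor released when sterols are scarce. Sterols in the membrane hold SREBP-2 back through SCAP and the INSIG proteins, so that a liver supplied with cholesterol usually lowers the whole set. The steps covered here run from the joining of isoprenoids to squalene, through ring closure, to the removal of methyl groups and the rearrangement of unsaturated bonds that leave cholesterol.

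Libraries held 13672589 to 23948628 counts. DC371739 replicate 7 and control replicates 6 and 7 stood apart, with 22152239 to 23948628 counts and a mitochondrial share of 12.6% to 14.4%, against 13672589 to 16710097 counts and 7.23% to 9.33% in the other 11. They are called the deeper libraries, and the test was also run with a depth term (deeper or not) in the model and over the remaining 11, called shallow (6 DC371739 and 5 control). Of 10 hepatocyte markers 9 were in the authors' table, none at 0, with a summed level of 101323 to 121663 FPKM in DC371739 livers and 104281 to 137676 FPKM in control livers. Macrophage markers (9 of 10 in the table, none at 0 in every library) summed to 594 to 966 FPKM in DC371739 livers and 531 to 754 FPKM in control livers. Of these 9 macrophage markers 3 rose over all 14 libraries, against 1.85% of all tested genes called either way (151 of 12166 higher). Over the 11 shallow libraries 5 of 9 macrophage, 2 of 5 endothelial, 2 of 9 hepatocyte, 1 of 8 stellate and fibroblast, 1 of 5 lymphocyte and 0 of 4 cholangiocyte markers rose, against 21.5% of all genes called either way. Of the 12249 genes tested there, 1353 were called higher. Stellate and fibroblast markers (8 of 8) summed to 97.9 to 157 FPKM in DC371739 livers and 74.2 to 116 FPKM in control livers. In bulk tissue, fewer cells of a type and less RNA per cell cannot be told apart, and the part of other cell types in the results that follow was not tested.

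The 9 genes differed widely in level. FPKM, the count per kilobase of exon as scaled by the authors to each library, was used to set genes side by side. Fdft1 stood highest, with a mean of 23.6 ± 5.31 FPKM in DC371739 livers and 17.6 ± 6.10 FPKM in control livers (SD, n = 7 each). Nsdhl, Lss, Sc5d and Dhcr7 followed at means between 10.3 and 15.3 FPKM in DC371739 livers and between 10.4 and 16.1 FPKM in control livers. Tm7sf2 and Msmo1 lay at 4.26 ± 0.68 and 3.96 ± 0.90 FPKM in DC371739 livers, and at 5.92 ± 2.04 and 5.68 ± 1.46 FPKM in control livers. Hsd17b7 was at 1.83 ± 0.78 FPKM in DC371739 livers and 1.32 ± 0.61 FPKM in control livers, and Sqle lowest at 0.69 ± 0.12 FPKM in DC371739 livers and 0.49 ± 0.21 FPKM in control livers.

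By control mean, Fdft1 was 35.9 times and Dhcr7 21.2 times as abundant per length as Sqle. In DC371739 livers the ranges of neighbours in this order separated between Dhcr7 and Tm7sf2, between Msmo1 and Hsd17b7, and between Hsd17b7 and Sqle. In control livers they separated only between Msmo1 and Hsd17b7, since the lowest Hsd17b7 value (0.78 FPKM) lay below the highest Sqle value (0.92 FPKM). From Fdft1 down to Dhcr7 the ranges of neighbours overlapped in both groups. Sqle, squalene epoxidase, is usually named as a rate-limiting step of the pathway. Its low level rests on 11 to 32 counts per library, so its values carry more counting error than those of Sc5d, with 520 to 1225 counts.

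**Figure D1:**
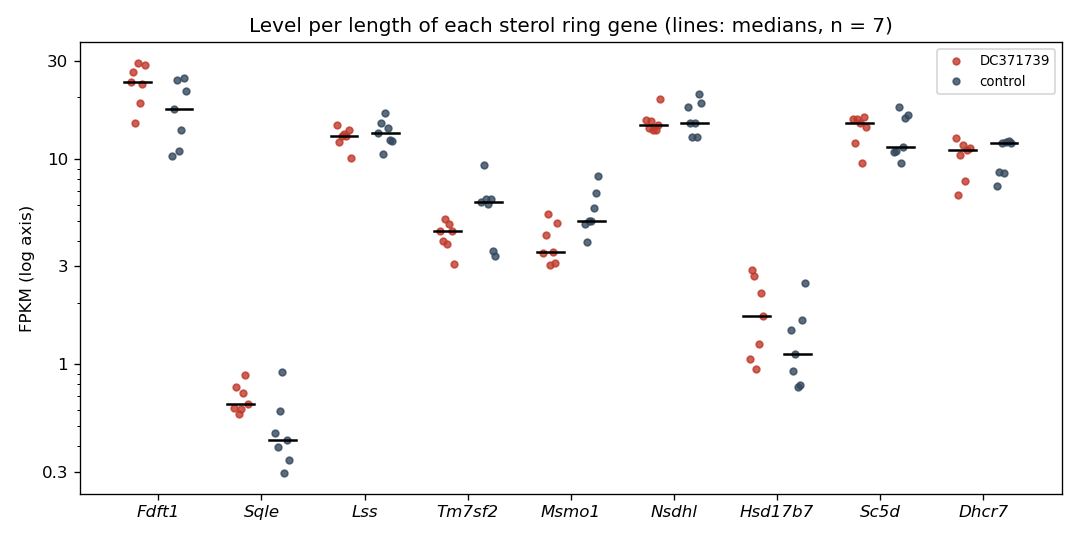
FPKM on a log axis for the 9 genes in pathway order, 1 point per library, DC371739 left of control, with a line at each group's median. Fdft1 has the highest medians (23.7 FPKM in DC371739 and 17.6 FPKM in control livers) and Sqle the lowest (0.64 FPKM in DC371739 and 0.43 FPKM in control livers).

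Summed over the 9 genes, the level was 73.3 to 94.5 FPKM in DC371739 livers (median 89.6) and 73.0 to 98.5 FPKM in control livers (median 81.9), and the groups overlapped almost fully. The 3 deeper libraries had the highest sums of the 14. Control replicates 6 and 7 stood at 98.5 and 95.3 FPKM and DC371739 replicate 7 at 94.5 FPKM, with the next at 92.0 FPKM. Fdft1 made up 18.0% to 32.0% of that sum in DC371739 livers (median 25.9%) and 14.2% to 26.8% in control livers (median 21.5%). Tm7sf2 made up 3.26% to 6.56% in DC371739 livers (median 4.88%) and 3.53% to 11.5% in control livers (median 8.25%).

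The comparison of DC371739 with control livers asked whether this stretch of the pathway was expressed differently after treatment. The 9 genes did not move together. Fdft1, Sqle and Hsd17b7 had log2 fold changes of 0.42 to 0.49, Tm7sf2 and Msmo1 of -0.47 and -0.52, and Lss, Nsdhl, Sc5d and Dhcr7 lay between -0.08 and 0.08. With edgeR's quasi-likelihood test over all 14 libraries, 0 of the 9 passed a Benjamini-Hochberg adjusted p of 0.05, where 1.85% of all tested genes did. At an unadjusted p under 0.05 there were 2 of the 9, Tm7sf2 and Msmo1, against 20.4% of all genes, and DESeq2 also called 0, against 6.33% of all genes. The median log2 fold change of the 9 was -0.02, equal to the -0.02 of all tested genes. In the authors' deposited table the smallest adjusted p of the 9 was 0.116, for Msmo1, and its log2 fold changes were within 0.0027 of those given here.

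With the depth term 2 of the 9 passed, both lower, where 6.7% of all genes were called lower and 12.3% either way. Over the 11 shallow libraries 1 passed, against 21.5% of all genes, and limma-voom with sample quality weights called 2, against 22.5%. The gene called in all 3 was Tm7sf2, and the second was Msmo1. The share of all genes called was also higher in each of these fits than over all 14 libraries.

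The first group of enzymes makes squalene and closes the ring. Fdft1, squalene synthase, which joins 2 farnesyl diphosphates, spans 5221571 to 5249091 of scaffold KB708180.1 (the sources used here name no build for these coordinates). In CPM, counts per 1e+06 of the TMM-scaled library, Fdft1 had 21.1, 33.6 and 41.9 in DC371739 livers as lowest, median and highest, and 14.6, 24.9 and 34.4 in control livers. In 3 of 7 DC371739 livers the value lay above the control range and in 6 of 7 above the control median. The 5 shallow control livers ran from 14.6 to 34.4 CPM, and control replicate 3, at 34.4, stood beside the deeper control replicate 6, also at 34.4. The log2 fold change was 0.42 (SE 0.21, 95% interval -0.02 to 0.86, adjusted p = 0.263 with edgeR). It was 0.51 (adjusted p = 0.0926) with the depth term and 0.57 (adjusted p = 0.108) over the 11 shallow libraries. Without control replicate 3 those 2 fits gave 0.68 (adjusted p = 0.0352) and 0.79 (adjusted p = 0.0235), and Fdft1 then passed.

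Sqle, which adds the oxygen that later becomes the hydroxyl group of cholesterol, spans 4647676 to 4666740 of KB708262.1. It had 1.21, 1.32 and 1.90 CPM in DC371739 livers as lowest, median and highest, and 0.63, 0.89 and 1.96 CPM in control livers. All 7 DC371739 livers lay above the control median and all 7 within the control range, whose top was set by control replicate 4. The next highest control stood at 1.26 CPM. Its log2 fold change was 0.49 (SE 0.24, 95% interval -0.02 to 1.001, adjusted p = 0.267). Without control replicate 4 it was 0.71 (adjusted p = 0.0751), and it did not pass in any fit run. The spread of Sqle, as SD over mean, was 17.0% in DC371739 livers and 43.5% in control livers.

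Lss, lanosterol synthase, folds and closes the epoxide into the first sterol and spans 3567286 to 3588606 of KB708151.1. It had 22.6, 29.8 and 33.8 CPM in DC371739 livers as lowest, median and highest, and 24.5, 31.1 and 38.6 CPM in control livers. The log2 fold change was -0.07 with a 95% interval of -0.30 to 0.16 (adjusted p = 0.762), or 0.81-fold to 1.12-fold, in the fit over all 14 libraries. Lss thus had a narrow interval beside the wide ones of Fdft1 and Sqle, which both come before it in the pathway's order.

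**Figure D2:**
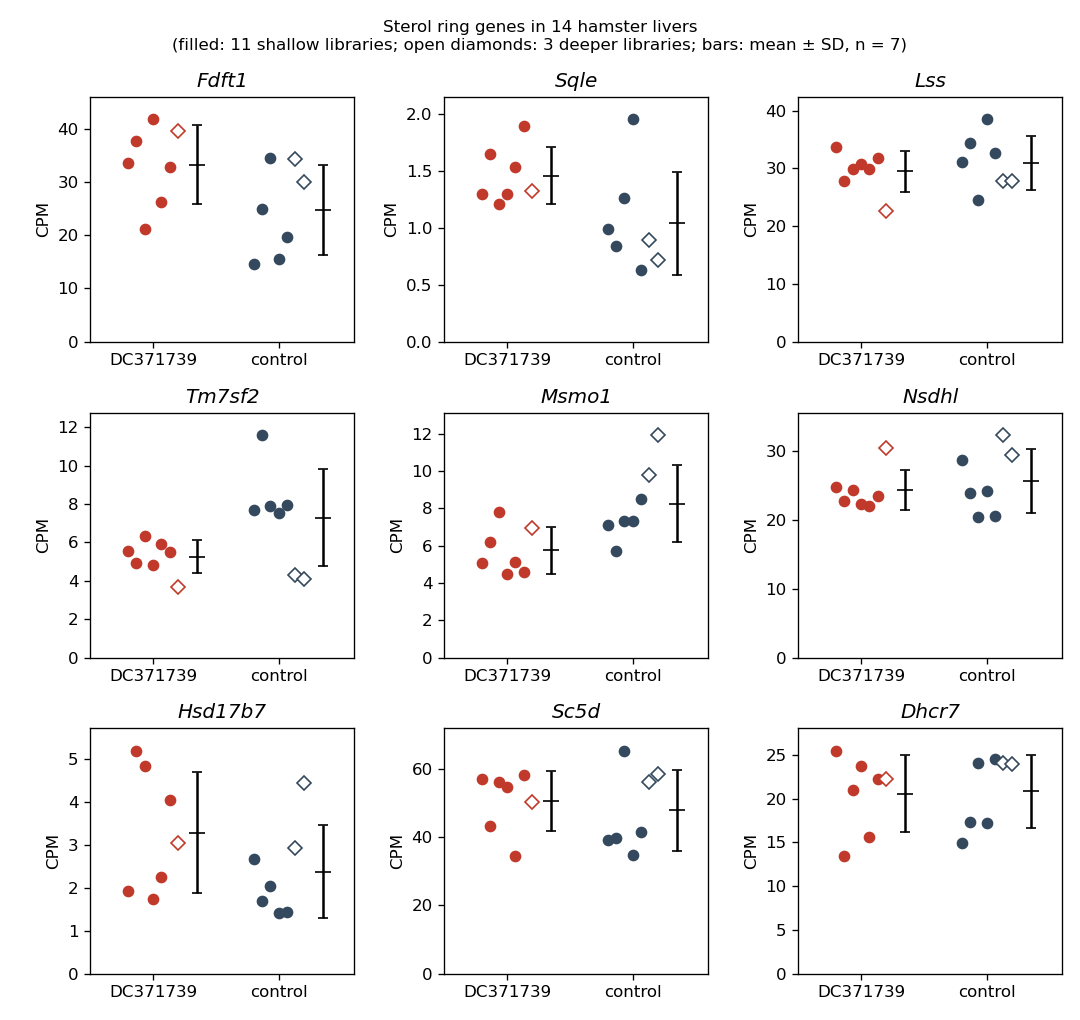
CPM of each gene by library, DC371739 left of control, with the mean and SD of 7 libraries beside the points; filled circles are the 11 shallow libraries and open diamonds the 3 deeper ones. In the Tm7sf2 panel the shallow DC371739 livers (4.80 to 6.32 CPM) lie below the shallow controls (7.52 to 11.6 CPM) and the deeper controls (4.10 and 4.30 CPM) sit apart from the rest of their group.

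The second group takes the methyl groups off lanosterol. Tm7sf2, a sterol reductase that follows removal of the methyl group near the ring junction, spans 51081147 to 51085542 of KB708127.1. It had 3.70, 5.51 and 6.32 CPM in DC371739 livers as lowest, median and highest, and 4.10, 7.66 and 11.6 CPM in control livers. All 7 DC371739 livers lay below the control median, and the ranges overlapped because the deeper control replicates 6 and 7 stood at 4.30 and 4.10 CPM. Among the shallow libraries the groups did not overlap, with 4.80 to 6.32 CPM in 6 DC371739 livers and 7.52 to 11.6 CPM in 5 control livers. The deeper DC371739 library, at 3.70 CPM, lay below both deeper controls as well, though on counts of 84 against 87 and 86. That order of the deeper libraries was not particular to Tm7sf2. Lss, Msmo1, Sc5d and Dhcr7 had it too, and Fdft1 and Sqle had the reverse. Tm7sf2 was the 1 gene of the 9 in which the groups separated within either class, a pattern looked for after its values were seen. Over all tested genes, 5.29% lay wholly below control in the shallow libraries and 2.04% did so within either class.

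Over all 14 libraries the log2 fold change of Tm7sf2 was -0.47 (SE 0.21, 95% interval -0.90 to -0.04, adjusted p = 0.209 with edgeR). With the depth term Tm7sf2 fell, by 0.54 on the log2 scale (SE 0.12, adjusted p = 0.0147), and over the 11 shallow libraries by 0.62 (SE 0.14, adjusted p = 0.00704). It passed whichever of the 14 libraries was left out of the fit with the depth term (adjusted p 0.00558 to 0.0334), and whichever of the 11 was left out of the shallow ones (0.00610 to 0.0175). Control replicate 2, the highest at 11.6 CPM, moved it most: without it the shallow libraries gave -0.49. The counts behind these values were 78 to 110 per library in DC371739 livers and 86 to 152 in control livers.

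Msmo1, the oxidase that starts removal of the paired methyl groups, spans 8391833 to 8407675 of KB708179.1. It had 4.49, 5.14 and 7.81 CPM in DC371739 livers as lowest, median and highest, and 5.72, 7.33 and 11.9 CPM in control livers. In 4 of 7 DC371739 livers Msmo1 lay below the control range, and in 6 of 7 below the control median, with replicate 3 the exception. The deeper libraries lay high for their group, at 6.96 CPM in DC371739 replicate 7 and at 9.78 and 11.9 CPM in control replicates 6 and 7. The log2 fold change was -0.52 (SE 0.17, 95% interval -0.88 to -0.16, adjusted p = 0.107 with edgeR). With the depth term Msmo1 fell by 0.43 (adjusted p = 0.0485), and over the 11 shallow libraries the value was -0.37 (adjusted p = 0.103). That call held without control replicate 2 or DC371739 replicate 3 and was lost without any of the other 12 libraries (adjusted p up to 0.117), and among the shallow libraries Msmo1 passed only when DC371739 replicate 3 was left out (adjusted p = 0.0298).

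Nsdhl and Hsd17b7 complete the same cycle, as the dehydrogenase that releases the carbon and the reductase that restores the hydroxyl group. Nsdhl, at 452013 to 475655 of KB708420.1, had 22.0, 23.5 and 30.5 CPM in DC371739 livers as lowest, median and highest, and 20.5, 24.1 and 32.4 CPM in control livers. Its log2 fold change was -0.08 (95% interval -0.32 to 0.17, adjusted p = 0.748). The deeper libraries had the 3 values of 29.5 to 32.4 CPM, and all shallow libraries but control replicate 1 (28.7 CPM) lay at 24.7 CPM or lower.

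Hsd17b7, at 18394798 to 18408984 of KB708154.1, had 1.72, 3.04 and 5.18 CPM in DC371739 livers as lowest, median and highest, and 1.41, 2.04 and 4.44 CPM in control livers. DC371739 livers split into replicates 2, 3 and 6 at 4.03 to 5.18 CPM, replicates 1, 4 and 5 at 1.72 to 2.24 CPM, and the deeper replicate 7 at 3.04 CPM. The high 3 exceeded every shallow control, which ran from 1.41 to 2.67 CPM. Its SD was 43.1% of the mean in DC371739 livers and 45.8% in control livers. The median over all tested genes in control livers was 21.1%. Hsd17b7 rests on 22 to 93 counts per library, so its spread holds more counting error than that of genes with higher counts. The log2 fold change was 0.46 (SE 0.31, 95% interval -0.19 to 1.11, adjusted p = 0.416). It was 0.61 (adjusted p = 0.167) with the depth term and over the 11 shallow libraries 0.85 (SE 0.31, adjusted p = 0.0643). In the shallow libraries it passed when control replicate 1 or DC371739 replicate 1 or 4 was left out (adjusted p from 0.0286) and in none of the other 8 leave-outs.

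**Figure D3:**
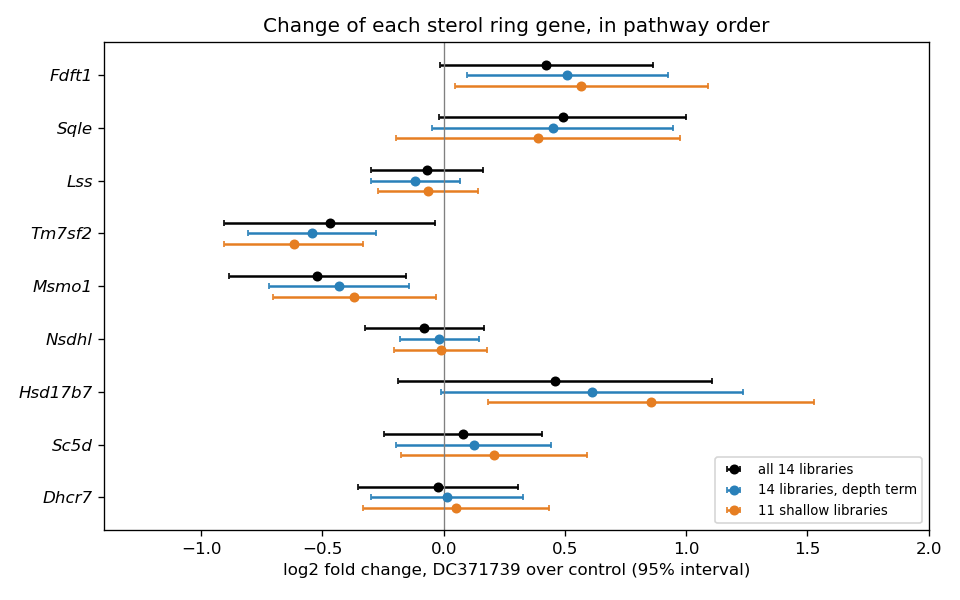
Log2 fold change of DC371739 over control for the 9 genes in pathway order, with 95% intervals, in 3 fits: all 14 libraries, 14 libraries with the depth term, and the 11 shallow libraries. Tm7sf2 (log2 fold change -0.47, -0.54 and -0.62) and Msmo1 (-0.52, -0.43 and -0.37) have negative intervals in all 3. Fdft1 has positive intervals with the depth term (0.51) and in the shallow libraries (0.57), and Hsd17b7 in the shallow libraries alone (0.85). Sqle, Lss, Nsdhl, Sc5d and Dhcr7 have intervals across 0 in each.

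The last group rearranges the unsaturated bonds. Sc5d, lathosterol oxidase, makes 7-dehydrocholesterol and spans 4717353 to 4730019 of KB708145.1. It had 34.4, 54.7 and 58.3 CPM in DC371739 livers as lowest, median and highest, and 34.7, 41.6 and 65.4 CPM in control livers. In 6 of 7 DC371739 livers the value lay above the control median, but control replicate 3 was the highest of all 14 and DC371739 replicate 5 the lowest. The log2 fold change was 0.08 (95% interval -0.25 to 0.41, adjusted p = 0.815).

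Dhcr7, which reduces 7-dehydrocholesterol to cholesterol, spans 55354073 to 55374988 of KB708127.1, the scaffold that also carries Tm7sf2. It had 13.4, 22.2 and 25.5 CPM in DC371739 livers as lowest, median and highest, and 14.9, 23.9 and 24.5 CPM in control livers. DC371739 replicates 2 and 5 were low, at 13.4 and 15.6 CPM, as were control replicates 1, 2 and 4 at 14.9 to 17.3 CPM. The log2 fold change was -0.02 (95% interval -0.35 to 0.31, adjusted p = 0.951), and its sign turned with library size as the only scaling (0.0044). As folds, these intervals ran from 0.84 to 1.33 for Sc5d and from 0.78 to 1.24 for Dhcr7 in the fit over all 14 libraries. Over the 11 shallow libraries the log2 fold changes were 0.21 (SE 0.18) for Sc5d and 0.05 (SE 0.18) for Dhcr7.

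No library was the highest or the lowest of its group for most of the 9 genes. In DC371739 livers the highest value of a gene fell in replicate 1, 3 or 6 for 2 genes each and in replicates 2, 4 and 7 for 1 each, and in control livers no library held more than 2 of the 9 maxima. Sc5d and Dhcr7, which act one after the other, varied most alike. Over the 11 shallow libraries, after subtracting each group's mean log2 CPM, their Pearson r was 0.74 (permutation p = 0.0136, adjusted over 36 pairs 0.489) and their Spearman rho 0.75 (permutation p = 0.0124, adjusted 0.446), with the samples permuted within groups and both tests two-sided. Without the 2 libraries farthest from the Sc5d median r was 0.73. Of the 36 pairs of genes 14 had a positive and 22 a negative r, with a median of -0.06, and 0 passed the correction by either measure (1 at an unadjusted p under 0.05). The 5 genes outside the pathway lists with the highest mean r to the 9, Fignl1, Rad18, Adora2a, Ckap2l and Zfp36, reached only 0.23 to 0.24 over these 11 libraries, which is a description and no finding.

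**Figure D4:**
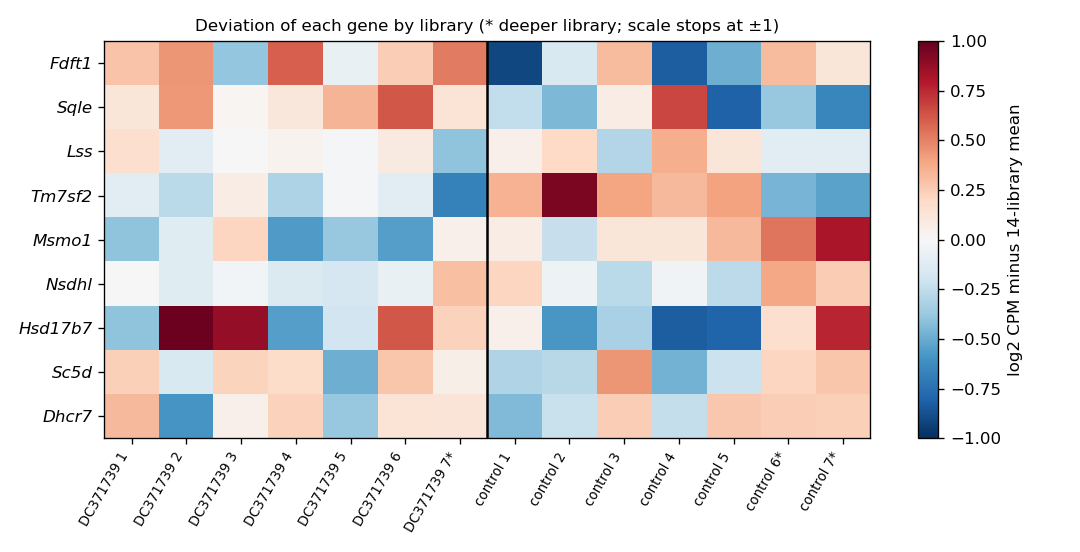
Log2 CPM of each gene in each library minus the gene's mean over 14 libraries, with DC371739 libraries left of control libraries, an asterisk at the 3 deeper ones and a colour scale that stops at ±1. Rows differ in which libraries are high, and no column is of 1 colour; Tm7sf2 is below its mean in the deeper control replicates 6 and 7, where Msmo1 is above its own.

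Further enzymes of the sterol ring were 4 of 7 listed symbols in the table, and 0 of these 4 passed with edgeR in any of the 3 fits, against 1.85% of all genes over 14 libraries, 12.3% with the depth term and 21.5% in the shallow ones; DESeq2 also called 0. At an unadjusted p under 0.05 there were 0 over 14 libraries (20.4% of all genes), 1 with the depth term (31.5%) and 1 in the shallow libraries (36.6%). Lbr, the lamin B receptor, catalyses the same reduction as Tm7sf2. Its log2 fold change was 0.01 (95% interval -0.23 to 0.24, adjusted p = 0.983), and 0.05 over the 11 shallow libraries (adjusted p = 0.772), where Tm7sf2 fell by 0.62. Whether the change of Lbr differed from that of Tm7sf2 was not tested.

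The upstream mevalonate steps and the SREBP machinery were represented by 17 of 19 listed genes. Of the 17, 0 passed over all 14 libraries with edgeR, against 1.85% of all genes. At an unadjusted p under 0.05 there were 4, against 20.4% of all genes, and DESeq2 called 1, against 6.33%, shares near those of all genes. Of the 17, 11 had a negative and 6 a positive log2 fold change, and their median was -0.12, beside -0.02 for all tested genes. Insig1, the sterol-sensing protein that keeps SREBPs in the endoplasmic reticulum, averaged 46.4 FPKM in DC371739 livers and 76.2 FPKM in control livers, with a log2 fold change of -0.71 (SE 0.23, adjusted p = 0.0968), and was the gene that DESeq2 called (adjusted p = 0.0376). Its value was -0.63 (adjusted p = 0.0740) with the depth term and -0.61 (adjusted p = 0.0960) in the shallow libraries. Srebf2, the gene of SREBP-2, averaged 8.14 FPKM in DC371739 livers and 5.67 FPKM in control livers, with a log2 fold change of 0.52 (SE 0.17, adjusted p = 0.109), and 0.43 (adjusted p = 0.0647) with the depth term. With the depth term 1 of the 17 passed, against 12.3% of all genes: Mvd, the decarboxylase that ends the mevalonate part, fell by 0.42 (adjusted p = 0.0350), where its value over all 14 libraries was -0.34 (adjusted p = 0.385).

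Over the 11 shallow libraries 3 of the 17 passed, against 21.5% of all genes. Mvd fell by 0.50 (adjusted p = 0.0153), Srebf2 rose by 0.58 (adjusted p = 0.0108) and Mbtps2, a protease that frees SREBPs from the membrane, rose by 0.45 (adjusted p = 0.0472), where its log2 fold change over all 14 libraries was 0.03. Fdps, which makes the farnesyl diphosphate that Fdft1 uses, had a log2 fold change of -0.24 over all 14 libraries (adjusted p = 0.165), -0.21 with the depth term (adjusted p = 0.0779) and -0.23 over the shallow ones (adjusted p = 0.0814). With limma-voom and sample quality weights 4 of the 17 passed, against 22.5% of all genes. Fdps fell by 0.25 there (adjusted p = 0.0333), and the others were Insig1 and Mvd, both lower, and Srebf2, higher. The lists thus held genes on either side of 0 upstream of squalene as well as after it.

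**Figure D5:**
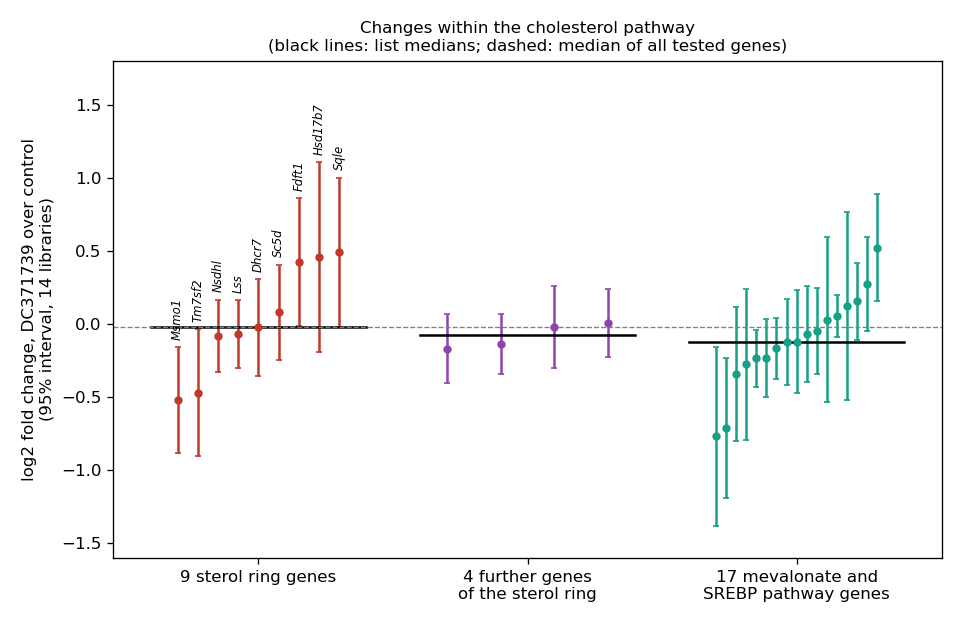
Log2 fold change over all 14 libraries with 95% intervals for the 9 genes (named), 4 further genes of the sterol ring and 17 mevalonate and SREBP pathway genes, each set sorted by value, with a black line at the set's median and a dashed line at the median of all tested genes (-0.02). The medians of the 3 sets are -0.02, -0.08 and -0.12, and each set holds genes on either side of 0.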

How the data were processed

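Per the file headers, the authors deposited whole-number counts per Ensembl gene with exon coordinates and summed exon length (22283 genes). Their second table holds FPKM per library for 10023 genes with a symbol, beside the results of a comparison by the authors: a log2 fold change, a mean CPM on the log2 scale, and p-values before and after adjustment. Submitters' processing notes list HISAT2 2.2.1, featureCounts 2.0.0 and edgeR without a version; the sources used here do not give build, annotation, strand or filters. Every sample carries the names of 2 library kits (TruSeq and NEBNext). Each FPKM equals count over length and 1 constant per library (largest relative deviation 1.3e-07).

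The count test was edgeR's quasi-likelihood F-test (edgeR 4.0.16, R 4.3.3; robust, TMM scaling, minimum count of 10) with group alone in the model. A Benjamini-Hochberg adjusted p under 0.05 over 12166 genes was called. Intervals of 95% use the test's degrees of freedom. Alternatives were other scalings and filters, DESeq2 1.42.0, limma 3.58.1 (voom with weights; log2(FPKM + 1) or log2(FPKM + 0.1), a minimum mean FPKM of 1, or unfiltered), a replicate block, a depth term, the 11 shallow libraries and leave-outs; leave-outs within the last 2 were added after seeing the data. The test was also run on simulated counts, with each gene at the same level in deeper and shallow libraries. That run cannot show how the test handles a shift between them. Among 42 pairs of libraries of a group, none agreed within sampling noise (chi-square at least 11.2 per degree of freedom). No span of the 9 genes overlaps another gene's in the count table; reads shared with near-identical copies elsewhere cannot be told apart. Genes, lists, depth classes and the rule for named genes (the 9, their lists, and the 5 genes most alike) were chosen with earlier results of these data known. Promoter and protein sequences were not used here. Some single genes of the lists are not reported here; the list counts include them.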

Additional observations from a re-analysis of the deposited data

Results flagged for a closer look

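Of 18 groups of 7 values (9 genes in DC371739 and in control livers), 1 held a value far from the rest. Nsdhl stood at 30.5 CPM in DC371739 replicate 7, where the other 6 DC371739 livers ran from 22.0 to 24.7 CPM. That library is the deeper one of its group, and the deeper control libraries were at 32.4 and 29.5 CPM. Chance marks about 1 in 20 such groups.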

How the results depend on the processing

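Of the 9 sterol ring genes, 0 passed under other scalings, other filters, DESeq2, limma on FPKM, the replicate block or without any 1 of the 14 libraries (0 to 0). The limma fits on FPKM with a minimum mean tested 8 of the 9, since Sqle (mean 0.59 FPKM over 14 libraries) fell below it. The number of the 9 that passed was 2 with limma-voom and sample quality weights, 2 with the depth term, and 1 in the shallow libraries. Of the 17 mevalonate and SREBP pathway genes, 1 passed with DESeq2, 4 with limma-voom, 1 with the depth term, 3 in the shallow libraries, 0 to 1 without 1 library (1 without DC371739 replicate 7), and 0 elsewhere. Over all genes 225 passed (151 higher, 74 lower), 850 with DESeq2, 2739 with limma-voom, 8 with the replicate block, 1499 with the depth term, and 2635 in the shallow libraries. Without 1 library the count ran from 25 (DC371739 replicates 3 and 6) to 1069 (DC371739 replicate 7), and upper-quartile scaling gave 223 higher and 65 lower. The labels do not say that replicate numbers pair the samples, and expression alone cannot decide it. The correlation of deviations between samples of the same number ran from -0.13 to 0.55. The 0.55 was that of replicate 7, a deeper library in both groups. The replicate block changed no call among the 9 genes. The cause of these differences was not tested.

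Among the genes reported singly, signs turned for those whose log2 fold change lay near 0, the farthest being Stard4 at 0.12. Dhcr7 had 0.0044 with library size alone, 0.014 with the depth term and 0.051 in the shallow libraries. Leaving out 1 library, over all 14 or within the depth-term and shallow fits, moved Dhcr7 between -0.091 and 0.145, Lss between -0.188 and 0.0043, and Nsdhl between -0.145 and 0.070. Over all 14 libraries it moved Lbr between -0.045 and 0.051, Srebf1 between -0.142 and 0.019, Mbtps2 between -0.084 and 0.247, and Stard4 between -0.018 and 0.294.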
